A study of Mus musculus with 2 samples.

Results

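Shank1, Shank2, Shank3, Dlg1, Dlg2, Dlg3, Dlg4, Dlgap1 and Dlgap2 are 9 mouse genes for scaffold proteins of the excitatory synapse, taken by name from the 21755 protein-coding genes on chromosomes 1 to 19 and X. Their open chromatin was read from DNase-seq, a map of the sites in nuclei that are open to the enzyme DNase I. A peak is a stretch of frequent cutting, and its deposited height, read here as cuts scaled to library depth, is the value given below. For each gene all peaks that overlapped the gene body or the 10 kb on either side were taken, together with the deposited footprints inside them. Footprints are short runs within open chromatin that are cut less than their surroundings. Male mice of the strain B6CASTF1/J, the F1 of a C57BL/6 and a CAST parent, gave the tissue, left cerebral cortex, at an age of 36 days, and the labels name no treatment. There were 2 mice in 1 group, with 1 library each, named replicate 1 and replicate 2. The labels number them as different males under a shared donor identifier. With 1 group there is no comparison between conditions and no test across animals, so that values are given per mouse.

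The postsynaptic density is a layered protein mesh under the membrane of excitatory synapses. Dlg proteins, the membrane-associated guanylate kinase scaffolds, bind glutamate receptors and adhesion molecules at the membrane through their PDZ domains. Dlgap proteins bind the guanylate kinase domain of the Dlg proteins and, at their other end, the PDZ domain of the Shank proteins, which connect to Homer and to the actin cytoskeleton. Genes of this group are known for long introns and for several promoters, which give proteins with different first parts.

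The windows of sequence below show a selection of sites made after their values were seen: the highest start site peak, high intron sites of Dlg4, Dlgap1 and Dlgap2, and the inner starts of Shank2 and Shank3 with a repeat inside a footprint. The high Shank1 sites and the first Shank3 start are described further on by their values. The windows come from the reference genome GRCm38.p6, which is the C57BL/6 sequence, on the forward strand, which is the coding strand of all 9 genes. CAST alleles were not used here. Each run reads 5′ to 3′ in lower case, and capitals mark bases inside a footprint of both mice. Exons were left out.
Dlg2 and Tmem126b shared start chr7:90476002-90476260: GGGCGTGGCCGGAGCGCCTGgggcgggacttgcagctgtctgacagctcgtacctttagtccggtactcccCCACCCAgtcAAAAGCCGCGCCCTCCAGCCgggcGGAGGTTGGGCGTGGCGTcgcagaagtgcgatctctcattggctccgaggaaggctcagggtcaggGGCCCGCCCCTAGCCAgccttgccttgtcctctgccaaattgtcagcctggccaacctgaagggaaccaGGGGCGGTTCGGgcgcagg
Dlg4 intron chr11:70021325-70021624: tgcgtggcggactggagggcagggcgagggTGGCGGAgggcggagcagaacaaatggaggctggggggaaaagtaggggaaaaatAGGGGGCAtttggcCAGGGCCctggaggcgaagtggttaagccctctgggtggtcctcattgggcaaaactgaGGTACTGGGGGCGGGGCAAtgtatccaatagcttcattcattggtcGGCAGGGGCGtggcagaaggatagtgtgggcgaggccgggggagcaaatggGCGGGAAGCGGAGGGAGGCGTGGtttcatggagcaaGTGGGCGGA
Dlgap1 intron chr17:70489001-70489220: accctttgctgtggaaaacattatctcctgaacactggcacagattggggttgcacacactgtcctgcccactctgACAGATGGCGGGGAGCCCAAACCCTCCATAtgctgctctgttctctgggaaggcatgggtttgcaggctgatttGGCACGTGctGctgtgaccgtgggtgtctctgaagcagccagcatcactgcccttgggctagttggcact
Dlgap2 intron chr8:14447381-14447600: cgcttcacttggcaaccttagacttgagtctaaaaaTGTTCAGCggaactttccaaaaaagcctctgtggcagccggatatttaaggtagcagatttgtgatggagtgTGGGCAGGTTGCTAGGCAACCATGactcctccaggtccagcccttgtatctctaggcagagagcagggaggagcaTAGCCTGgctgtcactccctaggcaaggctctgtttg
Shank2 late start chr7:144417621-144417824: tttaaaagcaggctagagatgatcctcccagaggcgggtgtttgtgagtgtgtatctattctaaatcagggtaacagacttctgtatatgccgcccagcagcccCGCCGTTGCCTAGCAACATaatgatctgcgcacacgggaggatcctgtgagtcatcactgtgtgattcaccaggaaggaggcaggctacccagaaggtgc
Shank3 inner start chr15:89532661-89532889: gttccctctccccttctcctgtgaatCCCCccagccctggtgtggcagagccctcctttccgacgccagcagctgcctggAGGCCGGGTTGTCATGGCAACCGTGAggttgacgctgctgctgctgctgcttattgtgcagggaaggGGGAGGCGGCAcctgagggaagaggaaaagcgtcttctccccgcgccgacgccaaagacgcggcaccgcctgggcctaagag
In the window beside Dlg2 and Tmem126b 93 of the 259 bases lay in footprints of both mice, and in the Dlg4 intron 83 of 300. In the Shank2 window the footprint shared by the mice was 1 run of 19 bases, CGCCGTTGCCTAGCAACAT. The Dlgap2 and Shank3 windows hold an inverted repeat of the same kind, TGGGCAGGTTGCTAGGCAACCATG and AGGCCGGGTTGTCATGGCAACCGTGA, within a footprint of both mice.

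The labelled tissue was checked against marker genes. A peak within 1 kb of a start site was listed in both mice at 6 of 6 genes of cortical excitatory neurons. These are the cells in which most of the 9 scaffolds are known to act. Of all protein-coding genes 63.5% had such a peak in replicate 1, 58.4% in replicate 2 and 57.7% in both. Of 6 genes of inhibitory neurons 4 had one in replicate 1, 1 in replicate 2 and 0 in both. Of 5 astrocyte genes the counts were 3, 1 and 1. Of 5 oligodendrocyte genes they were 2, 3 and 2, and none of 4 microglial or 3 endothelial genes had one. Of 5 genes of other tissues, Ckm had a peak in both mice and En1 in replicate 1. The tissue was not sorted, and fewer cells with an open site and less opening per cell cannot be told apart. The libraries held 72021 and 59150 peaks, at an inferred depth of 160.1 and 145.4 M cuts, with median heights of 1.18 and 0.963. Replicate 1 was thus the library with more peaks and the higher median height over the genome. What part this has in the differences between the mice below was not tested.

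All 9 genes had a peak within 1 kb of at least 1 annotated start site in both mice. In replicate 2 this fell to 8 genes with a window of 500 bp, without Shank1, and to 8 with the higher 50% of peaks by height, without Dlg1. Over all protein-coding genes 63.5% had one in replicate 1, 58.4% in replicate 2 and 57.7% in both. The 9 genes have many start sites, which gives each more chances of a peak. Joined where they lay within 500 bp of each other, the start sites formed a median of 6 clusters per gene against 2 over all genes. Of the 58 clusters 26 had a peak in replicate 1 (44.8%, against 33.5% of all clusters) and 24 in replicate 2 (41.4%, against 29.1%). A peak was listed in both mice at 22 clusters (37.9%, against 28% of all), in replicate 1 alone at 4, in replicate 2 alone at 2 and in neither at 30. Clusters with a coding transcript had one in both mice at 14 of 32, and clusters of noncoding transcripts at 8 of 26. The clusters with a peak in both mice had a median GC content of 55% over 1 kb, and those without any peak 46.2%. Of the 30 clusters without a peak, 20 had no base at a false discovery rate of 0.05 or less within 1 kb in either mouse.

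**Figure D1:**
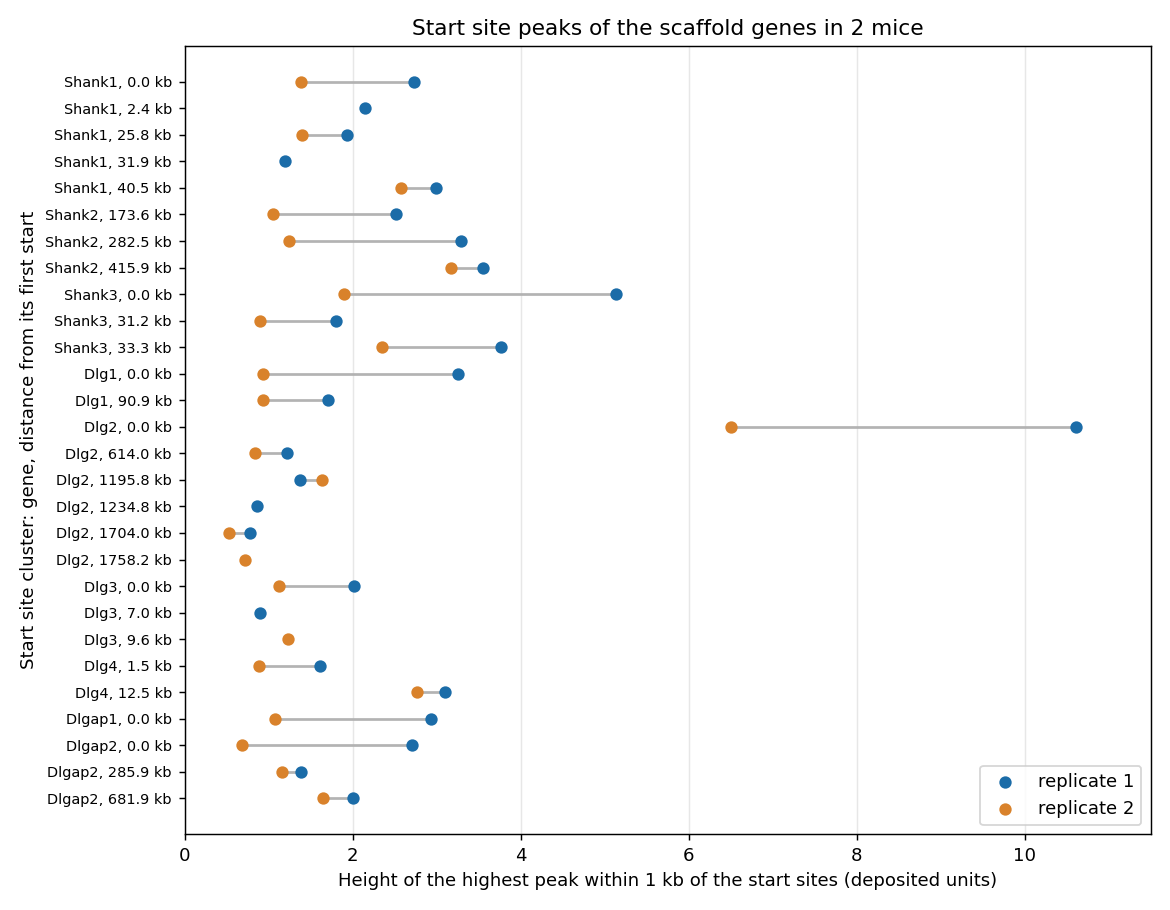
Height of the highest peak (horizontal axis, deposited units) at each start site cluster with a peak in either mouse, named by gene and by distance from the first start of that gene in kb. Each point is 1 mouse and grey lines join the mice. The first Dlg2 cluster, at 10.6 and 6.51, lies above all others, with a peak that covers the start of the neighbour Tmem126b. Replicate 1 is higher at 21 of the 22 joined clusters.

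By its highest start site peak, each gene had a height between 2.01 and 10.6 in replicate 1 and between 0.929 and 6.51 in replicate 2. The median over the 9 genes was 3.10 and 2.35, and over all protein-coding genes with a peak it was 4.40 and 2.65. As means over the mice (SD, n = 2), Dlg2 had 8.56 ± 2.90, Shank3 3.74 ± 1.98, Shank2 3.36 ± 0.266, Dlg4 2.93 ± 0.239 and Shank1 2.79 ± 0.296. Dlgap2 followed with 2.17 ± 0.750, Dlg1 with 2.09 ± 1.65, Dlgap1 with 2.01 ± 1.31 and Dlg3 with 1.62 ± 0.551. For Shank3, Dlgap2 and Dlg3 the highest peak stood at different start clusters in the mice, so their mean and SD combine different sites. Only for Dlg2 over Shank3 and for Shank2 over Dlg4 did the values of the mice not overlap between neighbours in this order. Dlg1 took place 4 in replicate 1 and place 9 in replicate 2, and Shank3 place 2 and place 5, and only Dlg2 held the same place in both mice. The place of Dlg2 rests on a peak that covers the start of the neighbour Tmem126b. Its other start clusters had at most 1.37 in replicate 1 and 1.64 in replicate 2.

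Dlg4 encodes the main scaffold of mature excitatory synapses and is the shortest of the genes (chr11:70016942-70047522). Its 7 start site clusters had 2 with a peak, both listed in both mice. The cluster with 7 transcripts, 12.5 kb from the first start, had a height of 3.10 in replicate 1 and 2.77 in replicate 2, and the cluster 1.5 kb from the first start 1.61 and 0.881. Neither was the highest peak of the gene. An intron site at chr11:70021261-70021740, the Dlg4 window printed above, had 5.84 in replicate 1 and 5.32 in replicate 2, close to equal, with 11 footprints in the replicate 1 peak and 4 in the narrower replicate 2 peak. The replicate 1 peak ends 2180 bp before the nearest annotated Dlg4 start, that of Dlg4-206, outside the 1 kb window. With a window of 2500 bp this site holds the highest start site peak of Dlg4. A further intron site at chr11:70020721-70021027 had 1.82 and 1.93. In the upstream flank, 3.31 and 2.22 stood over the start of the neighbour Acadvl, a fatty acid oxidation gene, and a second neighbour, Asgr1, had 1.31 near its start in replicate 1 alone.

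Dlg2 encodes a close relative of Dlg4 and is one of the longest genes of the mouse (chr7:90476672-92449247, 1972576 bp). Its first cluster carried the highest peak of all 9 genes, 10.6 in replicate 1 and 6.51 in replicate 2. This peak, at chr7:90475961-90476260 in replicate 1, covers the start of Tmem126b, a mitochondrial protein gene that runs in the opposite direction and starts 671 bp from that cluster. Its height therefore cannot be assigned to 1 of the genes. Replicate 2 alone had 2 more peaks that belong to this cluster, and replicate 1 had none. The inner starts were far lower. The cluster at 614.0 kb had 1.22 and 0.832, that at 1195.8 kb 1.37 and 1.64, and that at 1704.0 kb 0.781 and 0.530, where the best peaks of the mice lay at different places. The starts at 1234.8 kb and 1758.2 kb had a peak in 1 mouse each, of 0.856 in replicate 1 and 0.722 in replicate 2. In the longer, less strict peak list replicate 2 had 0.433 at 1234.8 kb and replicate 1 had 0.681 at 1758.2 kb. The cluster at 1195.8 kb, of the noncoding transcript Dlg2-210, was the exception among the 22 clusters with a peak in both mice, as the value in replicate 2 was the higher. Away from start sites Dlg2 had no site as high as its first peak, and the highest in replicate 1, in an intron at chr7:91218661-91218940, had 2.09 and 0.984. The highest in replicate 2, and by the mean, was an intron site at chr7:91935301-91935520 with 1.97 and 1.75.

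Dlg1, whose product has roles in receptor transport and in epithelial polarity, lies at chr16:31663443-31875129. Of its 10 clusters only the first, with 6 transcripts, and that at 90.9 kb had a peak. The first had 3.26 in replicate 1 and 0.929 in replicate 2, the most unequal start site of the 9 genes among those where both mice had the peak in the same place. The other had 1.71 and 0.929. The highest site away from start sites lay beyond the gene end at chr16:31876421-31876720, with 2.61 and 1.55. It stands in a row of 13 sites, each within 2 kb of the next, over 10.7 kb around the gene end, and the other 12 were listed in replicate 1 alone. Those 12 were low, with heights from 0.306 to 0.874 and a median of 0.443, and 8 of them held a footprint. The row runs on over the start of the neighbour Meltf, which lies in the site at chr16:31878641-31879300. That start is 2090 bp from the highest site. Which gene the sites of the row belong to cannot be told from the peaks. Of the 7 Dlg1 sites elsewhere 3 were in both mice and 2 in each mouse alone. The row was picked out after its values were seen, and the part of the deeper library in it was not tested.

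Dlg3 lies on chromosome X, of which a male has 1 copy, at chrX:100767722-100818410, and is expressed early in synapse formation. Its first cluster had 2.01 in replicate 1 and 1.13 in replicate 2. The cluster at 7.0 kb had 0.899 in replicate 1 alone, and that at 9.6 kb had 1.23 in replicate 2 alone. In the longer, less strict peak list replicate 1 had 0.924 at 9.6 kb, while replicate 2 had no peak at 7.0 kb. By its highest start site peak Dlg3 took place 9 of the 9 genes in replicate 1 and place 7 in replicate 2. An intron site at chrX:100798061-100798460 with 1.35 and 0.991 was the highest away from starts.

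Dlgap1 encodes the best known partner of Dlg4 and lies at chr17:69969073-70821413. Of its 7 clusters only the first, with 7 transcripts, had a peak, of 2.94 in replicate 1 and 1.08 in replicate 2. The 6 inner clusters, 455.7 to 840.0 kb downstream of it, had none. The highest peak of the gene in replicate 1 was in an intron, 520.0 kb from the first start, at chr17:70489001-70489220, with 5.63 and 2.21. Its window, printed above, has a footprint shared by the mice that begins ACAGATGGCGGGGAGCCC and holds the letters CAGATGG. A second intron site, at chr17:70633561-70633780, had 2.02 and 3.29 and was the highest of the gene in replicate 2. Dlgap1 had 24 of its 32 sites in both mice, 8 in replicate 2 alone and 0 in replicate 1 alone, although replicate 1 had more peaks over the genome.

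Dlgap2 encodes a protein of the same family and lies at chr8:14095865-14847680. Its first cluster had 2.70 in replicate 1 and 0.681 in replicate 2, but the peaks lay at different places, 16 and 886 bp from the nearest start, and do not give a ratio of 1 site. The clusters at 285.9 kb and 681.9 kb, both of noncoding transcripts, had 1.38 and 1.16, and 2.00 and 1.64. The flank held 5.22 and 4.49 over the start of Erich1, a neighbour on the other strand. Inside the gene the highest sites were introns at chr8:14113301-14113660 with 3.80 and 2.57 and at chr8:14447381-14447600 with 3.09 and 3.65. The second of these is the Dlgap2 window printed above and was higher in replicate 2.

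Shank3, the gene lost in Phelan-McDermid syndrome, lies at chr15:89499623-89560261. Its first cluster had 5.14 in replicate 1 and 1.89 in replicate 2, with the best peak centred at -932 and -802 bp from the nearest start, and the 1 kb around the cluster has 78.2% GC. The replicate 1 peak held 12 footprints and the replicate 2 peak 4. The inner start of Shank3-207, at 33.3 kb, had 3.77 and 2.35 and was the higher start of the gene in replicate 2. The cluster at 31.2 kb had 1.81 and 0.901. Outside start sites Shank3 had only 3 sites, all in replicate 1 alone, the highest 1.18 in a coding exon.

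Shank2 (chr7:144001928-144424494) had no peak at its first 2 clusters. The 3 inner clusters had one in both mice, of 2.52 and 1.05 at 173.6 kb, 3.29 and 1.24 at 282.5 kb and 3.55 and 3.17 at 415.9 kb. The last is the start of the noncoding transcript Shank2-204, near the gene end, and its window is the Shank2 sequence above. There the mice were nearly equal, while at the 2 coding starts replicate 1 was more than 2 times as high. The highest site away from starts in replicate 1, in an intron at chr7:144268421-144268660, had 3.32 and 1.07. In replicate 2, and by the mean, the intron site at chr7:144316841-144317100 was higher, with 3.04 and 1.51.

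Shank1 (chr7:44310253-44360572) had a peak at all 5 clusters in replicate 1 and at 3 in replicate 2. The first had 2.74 and 1.39, that at 25.8 kb 1.94 and 1.40 at different places, and that at 40.5 kb, of a noncoding transcript, 2.998 and 2.58. The clusters at 2.4 kb and 31.9 kb had 2.14 and 1.20 in replicate 1 alone. In the longer, less strict peak list replicate 2 had 0.743 and 0.846 there. The highest peaks of Shank1 were at none of the 5 clusters. A site 5.2 kb upstream, at chr7:44304821-44305600, had 9.18 and 5.54 with 8 and 13 footprints inside the peaks, and 13 was the most in any peak of the 9 genes. It lies in the body of the neighbour Clec11a, 1302 bp or more from the start of that gene. A site at the other end, in the 3′ untranslated region at chr7:44360041-44360380, had 7.40 and 4.40. It also overlaps the gene 1700008O03Rik on the other strand. Which gene these sites belong to cannot be told from the peaks.

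**Figure D2:**
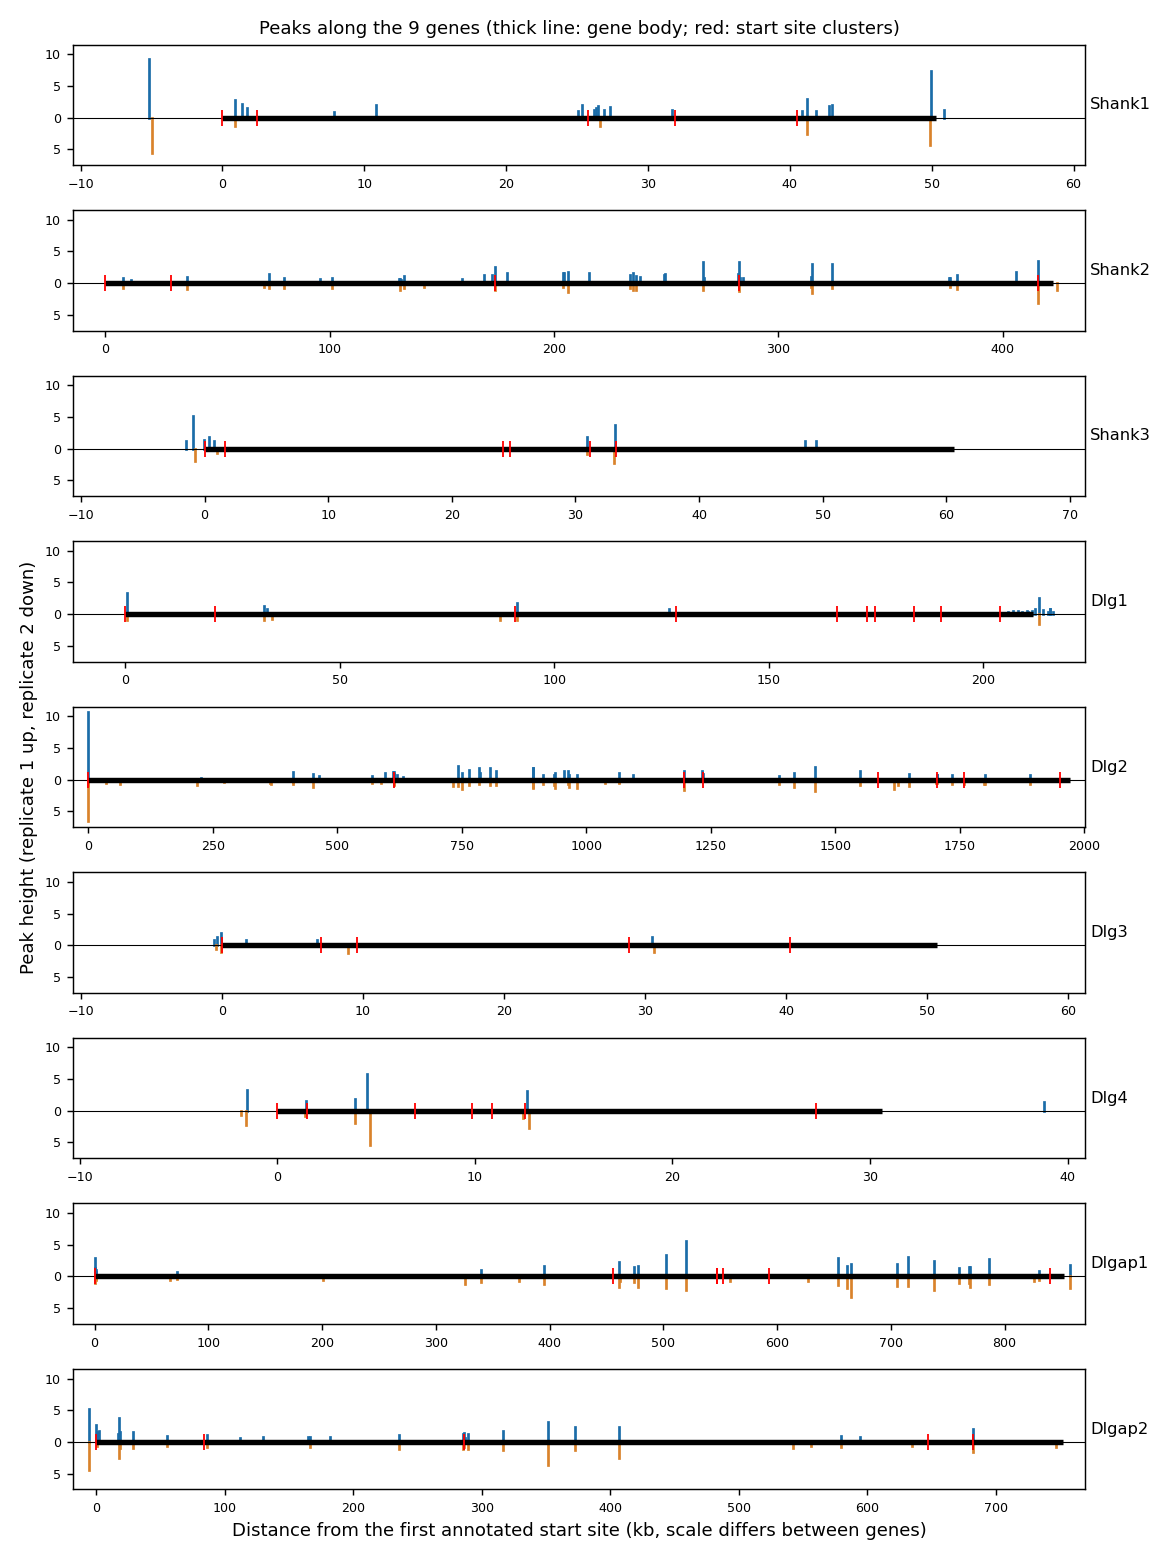
Peaks along each gene by distance from its first start in kb, on a scale that differs between genes, with height drawn upward for replicate 1 and downward for replicate 2. Thick lines are gene bodies and red ticks start site clusters. The high peaks of Shank1 stand outside its starts and those of Dlgap1 in introns. A row of low peaks from the Dlg1 end over the start of the neighbour Meltf is in replicate 1.

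The gene bodies with flanks held 197 peaks of replicate 1 and 153 of replicate 2, which is 0.274% and 0.259% of each list. Median heights were 1.26 and 0.901. Most were in introns, 121 and 110. Start sites took 51 and 35, flanks 14 and 7, coding exons 6 and 0 and untranslated regions 5 and 1. At the median, a peak rested on 202 and 131 cuts, whose counting error is 7.04% and 8.74%. Per 100 kb, replicate 1 ranged from 2.21 peaks at Dlg2 to 29.9 at Shank1 and replicate 2 from 2.46 at Dlg2 to 13.8 at Dlg4, and the median over all genes was 4.46 and 3.87. The shorter genes were the denser. Across the 9 genes Spearman's rho of length and density was -0.90 and -0.85, given as a description, with the fixed flanks as part of the span. Of the peaks 8 and 6 lay within 1 kb of the start of another protein-coding gene, namely Tmem126b, Acadvl, Asgr1, Erich1 or Meltf.

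Peaks were not spread evenly along the long genes. With each gene body cut into 4 parts of equal length, part 2 of Dlg2 held 16 of its 30 sites present in both mice, and part 1 held 2 of these beside 8 sites of replicate 2 alone. Dlgap1 had 11 of 24 in part 4, and Dlgap2 had 7 and 6 of 17 in parts 1 and 2. Shank2 had 5, 5, 7 and 4 of its sites in both mice in order along the gene, close to even. Its sites of replicate 1 alone were uneven, at 2, 7, 8 and 2, and those of replicate 2 alone were 1, 1, 0 and 0.

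Peaks of the mice were merged into 228 sites where they overlapped by at least 1 bp. Of these 112 (49.1%, 95% Wilson interval 42.7 to 55.6%, counting error only) were listed in both mice, 78 only in replicate 1 and 38 only in replicate 2. Over the genome the shares were 52.5%, 31.1% and 16.4% in the same order, so that the share was near the background. It differed among the families, at 29 of 71 sites for the Shank genes, 42 of 95 for the Dlg genes and 41 of 62 for the Dlgap genes, which is 40.8%, 44.2% and 66.1%. The difference between families was not tested, as sites of 1 gene are not replicates. By gene the share ran from 20% at Dlg1 and 27.8% at Shank1 to 71.4% at Dlg4 and 75% at Dlgap1. Shank1 had 13 sites in replicate 1 alone and 0 in replicate 2 alone, the reverse of Dlgap1. Median GC content of sites was 57.7% in the Shank genes, 48.9% in the Dlg genes and 50.9% in the Dlgap genes. Of the 78 sites in replicate 1 alone 32 were listed in the longer, less strict peak list of replicate 2, and of the 38 in replicate 2 alone 19 in that of replicate 1. Sites of 1 mouse were lower, with a median height of 0.871 in replicate 1 and 0.715 in replicate 2, against 1.53 and 1.06 for sites in both. The longer list counts and these heights were not computed over the genome.

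At the 112 sites in both mice the height was greater in replicate 1 at 92 (82.1%, against 79.5% of all sites in both mice). The median ratio of replicate 1 to replicate 2 was 1.41, and over the genome it was 1.38. Of the 22 start site clusters with a peak in both mice, 19 had best peaks that overlapped between the mice, and at these the median ratio was 1.78, with replicate 1 higher at 18. The same value over the start clusters of all genes was not computed. The largest ratios were at a Shank2 intron site at chr7:144325681-144325940 with 3.59, the first start of Dlg1 with 3.51, a Dlg2 intron site at chr7:91262041-91262400 with 3.13, a site beside the first start of Dlgap1 at chr17:69969570-69969840 with 3.12 and the Shank2 intron site at chr7:144268421-144268660 with 3.12. The smallest were intron sites of Shank2 at chr7:144133181-144133420 with 0.596, of Dlgap1 at chr17:70633561-70633780 with 0.614, and of Dlg2 at chr7:91457282-91457480 with 0.620, at chr7:91226561-91226760 with 0.727 and at chr7:91442841-91443140 with 0.748. The ratio went with GC content. Over the 112 sites, which share both libraries, Spearman's rho of GC content and log2 ratio was 0.48, and over all 43925 sites in both mice 0.53, given as descriptions. Above the median GC content of 51.3% the median ratio was 1.59, and at or below it 1.17, against 1.54 and 1.13 over the genome with the same split. Sites in replicate 1 alone had a median GC content of 54.9% and those in replicate 2 alone 47.6%. GC content moved with the ratio of the mice at these genes as over the genome, and its part in any difference between the mice was not tested.

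**Figure D3:**
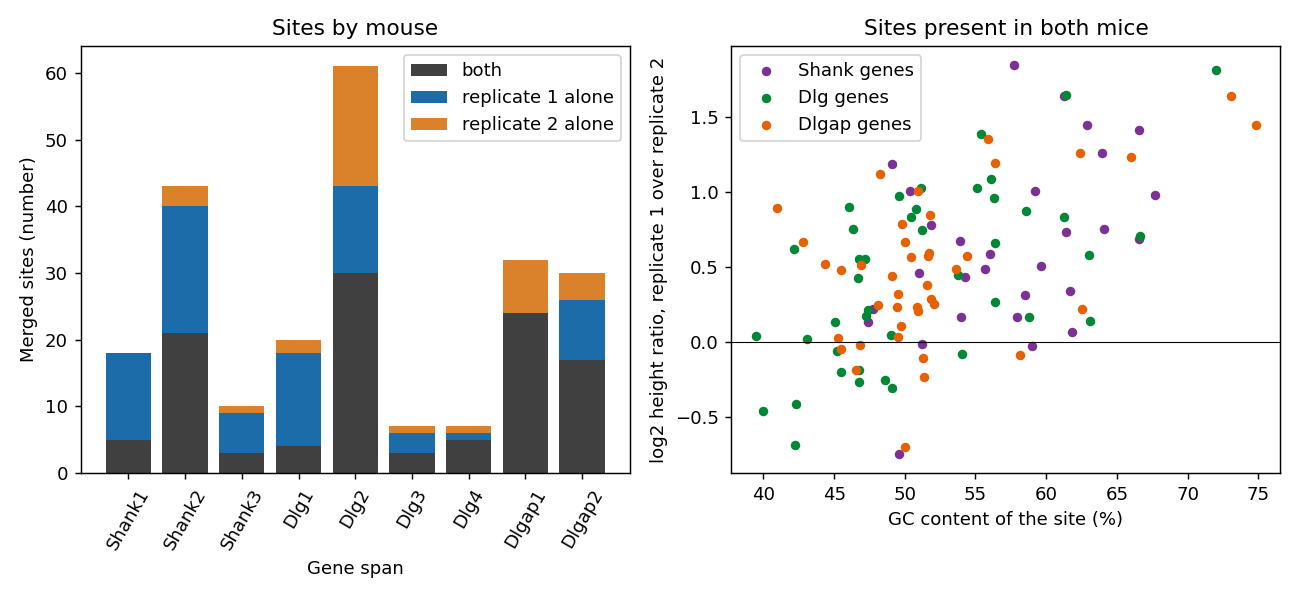
Left, number of merged sites in each gene span, split into those in both mice (dark grey), in replicate 1 alone (blue) and in replicate 2 alone (orange). Right, log2 ratio of heights, replicate 1 over replicate 2, against GC content in percent for the 112 sites in both mice, coloured by family; Dlgap1 lacks sites of replicate 1 alone and Shank1 lacks those of replicate 2 alone, and 92 of the 112 points lie above 0.

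Summed over peaks there were 539 footprints in replicate 1 and 365 in replicate 2, or 2.74 and 2.39 per peak, where all peaks of the libraries had 2.61 and 2.53. At least 1 footprint lay in 85.8% and 89.5% of the peaks, against 83.1% and 88.1% of all. The share was near the background. Some peaks of a list overlap, and counted once the footprints were 516 and 364. The peaks with the most were the Shank1 upstream peak of replicate 2 with 13, the first Shank3 start in replicate 1 with 12, the Dlg4 intron in replicate 1 with 11 and the Shank2 start at 173.6 kb in replicate 1 with 9, before several peaks with 8.

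Patterns of known factors, 12 in number, were searched on both strands of the 228 sites. A match is only a run of letters and does not show that a factor was bound. Shares of matches inside footprints were not computed over all sites of the genome, so these counts have no background here. CTCF, an insulator and loop protein whose pattern is given by name, matched at 13 sites (5.70%, against 5.22% of all sites), all in introns or flanks of Shank2, Dlg2, Dlg4 and Dlgap1. It was the pattern most often inside footprints, with 10 of 13 matches in a footprint of both mice and 2 in a footprint of 1 mouse. At none of the 58 start windows of 1 kb was there a match, where 0.983% of all start windows had one. Examples with the match in capitals, on the strand of the match, are these.
Dlgap1 intron chr17:70684003-70684014, reverse strand: catagcggCCACCAGAGGGCgacgttgc
Dlgap1 intron chr17:70429883-70429894, forward strand: gtatctgtCCAGCAGGTGGCgcagcaag
Dlg2 intron chr7:91457347-91457358, forward strand: gtctcttgCCACTAGATGGCggaagcag
Dlg2 intron chr7:91226645-91226656, reverse strand: aattttgtCCACTAGATGGCagctgctc
These Dlgap1 sites had heights of 2.99 and 1.49, and of 2.29 and 1.64, with more in replicate 1. The other Dlgap1 sites with a match did not lean that way. That at chr17:70738281-70738500 had 1.55 and 1.64, and that at chr17:70430548-70430619 had 0.757 in replicate 2 alone. The Dlg2 sites had 0.806 and 1.30, and 1.08 and 1.49, with more in replicate 2, and are among the 5 smallest ratios given above.

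An inverted repeat, GTTGC and GCAAC with 3 or 4 bases between them and up to 1 mismatch, the form of the X-box bound by RFX factors, was added after the windows above had been seen. It reads the same on both strands. It matched at 12 of the 228 sites (5.26%, against 2.97% of all sites), and since these sites led to the search the share is no evidence of excess. Of its 13 matches 5 were in a footprint of both mice, 2 in that of 1 mouse and 6 in none. The planned and stricter RFX pattern, given by name, matched at 2 sites (0.877%, against 0.514% of all), and both of these matches are also X-box matches. The 5 matches footprinted in both mice are shown with the match in capitals, on the forward strand.
Shank2 late start chr7:144417729-144417741: gccccgccGTTGCCTAGCAACataatgat
Shank2 intron chr7:144238649-144238662: actgatgcGTTGCCATGGAAACcggcacta
Shank3 first start chr15:89498824-89498837: cctcccgcGTTGCCACGACAACgtgtgaaa
Shank3 inner start chr15:89532748-89532761: gaggccggGTTGTCATGGCAACcgtgaggt
Dlgap2 intron chr8:14447496-14447508: gtgggcagGTTGCTAGGCAACcatgactc
They stand at the late start of Shank2, the first and the inner start of Shank3 and the Dlgap2 intron site, all described above with their heights, and at a Shank2 intron site with 1.14 and 1.15.

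NEUROD (CAGATGG), the pattern of neuronal basic helix-loop-helix factors, matched at 23 sites (10.1%, against 9.94% of all), with 4 of 24 matches in a footprint of both mice, among them the Dlgap1 intron. AP-1 (TGANTCA), the pattern of Fos and Jun, matched at 32 sites (14.04%, against 10% of all), and 0 of its 37 matches were in a footprint of both mice and 5 in that of 1 mouse. YY1 (AAGATGGCG) matched at 4 sites (1.75%, against 0.900% of all), of which 3 were the first Dlg1 start, the Dlg2 and Tmem126b start and the Shank3 start at 31.2 kb. CRE (TGACGTCA), the pattern of CREB, matched at 3 sites (1.32%, against 1.05%), of which 1 was the Dlg4 start with 7 transcripts.
Dlg4 start chr11:70029353-70029360, forward strand: gaggccacTGACGTCAgggaccag
MEF2, given by name, matched at 6 sites (2.63%, against 2.36% of all), SP/KLF (GGGGCGGGG) at 11 (4.82%, against 5.88%), EGR (GCGTGGGCG or GCGGGGGCG) at 3 (1.32%, against 2.49%) and ETS (CCGGAAGT) at 4 (1.75%, against 1.66%). REST, a repressor whose pattern is given by name and allowed 1 mismatch, matched at 1 site (0.439%, against 0.256%), the first start of Shank1. NRF1, given by name, matched at 0 sites, where 0.503% of all sites had a match. EGR and SP/KLF matches can overlap.

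**Figure D4:**
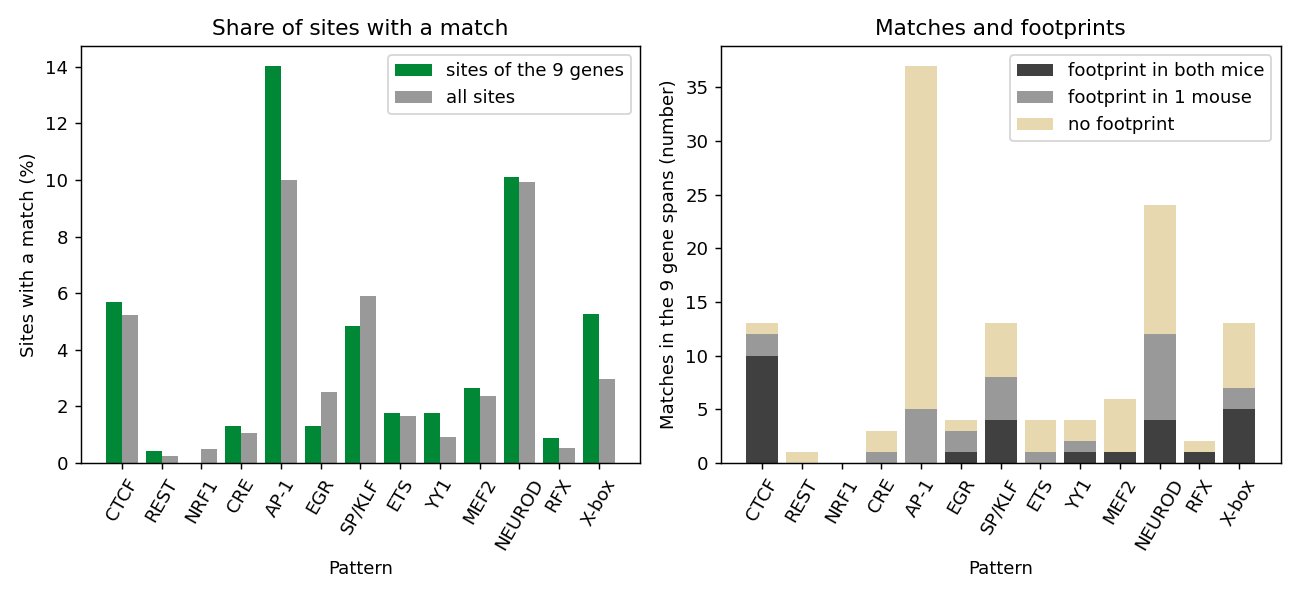
Left, percent of sites with a match to each pattern for the 228 sites of the 9 genes (green) and all sites of the genome (grey). Right, number of matches in the 9 genes split by whether a footprint of both mice, of 1 mouse or of neither covers them. CTCF has 10 of 13 in footprints of both mice and AP-1 0 of 37, with no such share computed over all sites.

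A list of 30 other genes was taken by name for the postsynaptic density. Whether each of them, such as Dlgap5, acts there was not checked. Of the 30 genes 29 had a peak within 1 kb of a start site in replicate 1, 26 in replicate 2 and 26 in both. The scaffolds above had 9 and 9, and all protein-coding genes 63.5% and 58.4%. The highest start peaks were those of Homer1, which links Shank to metabotropic receptors, with 9.94 and 5.41, Baiap2, an actin regulator that binds Shank, with 8.80 and 6.22, and Magi3, a membrane scaffold, with 7.81 and 5.72. Iqsec2, an exchange factor for Arf proteins, had none in either mouse, and Dlgap3, Dlg5 and Begain had one in replicate 1 alone, of 2.70, 2.15 and 1.71. Medians over those of the 30 genes with a peak were 4.17 and 2.57. This was just below the background of 4.40 and 2.65 for all protein-coding genes with a peak. The 9 scaffold genes lay further below it, with 3.10 and 2.35.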

How the data were processed

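DNase-seq was made from 1 library of each of 2 mice. Per the deposited file list, the authors derived each peak list and footprint list from the filtered alignments of 1 library on mm10, without pooling. The aligner, callers and settings were not given in the sources used here. A deposited peak height is a signal whose scale is not stated. In each library 100% of the distinct heights below 3 were whole multiples of 1 step (within 0.02 of a step), so they were read as cuts scaled to depth, and depth was inferred from the step. The deposited false discovery rate is an adjusted p-value per run of bases, listed at 0.05 or less. The deposited footprint column holds 0.01 throughout and was not used. Reads, signal tracks and chromosome Y were not used here.

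The shorter peak list of each library was used. Gene models were GENCODE M21 and the genome was GRCm38.p6. Start sites of a gene within 500 bp were joined, each peak went to the nearest cluster within 1 kb, and a footprint counted when it lay wholly inside a peak. A pattern match counted as footprinted over at least 50% of its length. Coordinates are 1-based. Tools were Python 3.11.15, NumPy 2.4.6, SciPy 1.17.1, pysam 0.24.0, samtools 1.23.1 and matplotlib 3.10.9. The procedures were run on simulated data, where 400 of 400 planted start site peaks and 650 of 650 planted patterns were recovered. These peaks were planted close to a start site and the patterns without mismatch. This checks the code only, and peaks further from a start or matches with a mismatch were not covered. The text names every start cluster with a peak, the highest peak of each gene away from starts, the 5 sites with the largest and smallest ratios, the peaks with most footprints, and neighbours whose start lies within 1 kb of a peak. The members, lists and patterns were chosen with earlier results of these data known. Means are given with the SD of 2 mice, and intervals cover counting error only. Alternatives were other peak lists, windows, spans, overlaps and scalings, and leaving out each mouse.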

Additional observations from a re-analysis of the deposited data

Results flagged for a closer look

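Of the 30 start site clusters without a peak of either mouse in the list used above, 7 had one in the longer, less strict list. At Shank3 this was the cluster 24.1 kb from the first start, with a height of 0.799 in replicate 1, and that at 24.7 kb, with 0.818 in replicate 1, both in sequence of high GC content (74.7% and 68.5%). At Dlg4 the cluster at 10.8 kb had 1.07 in replicate 1 and 0.695 in replicate 2, and that at 9.9 kb had 0.537 in replicate 2. At Dlgap1 the cluster with 7 transcripts at 552.6 kb had 0.974 in replicate 1 and 0.605 in replicate 2, and that at 592.5 kb had 0.725 in replicate 1. At Dlg1 the cluster at 204.0 kb had 0.468 in replicate 2. They are given as listed values only. There were no control samples, and the share of all start clusters with a peak in the longer list was not computed. These values therefore have no background here.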

How the results depend on the processing

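Apart from leaving out a mouse, 28 of 33 recomputed values of the main results stayed within 1.5 times the value given or within its error. As means over the mice, the 175 peaks in the spans became 292 with the longer peak list and 91 with the higher 50% of peaks by height. The 25 start clusters with a peak became 15.5 with coding transcripts only. The sites in both mice became 36.4% when a reciprocal overlap of 50% was required. The 111 matches of the planned patterns became 46 inside footprints. Leaving out each mouse gave 9 genes, 24 to 26 clusters, 153 to 197 peaks, 365 to 539 footprints and a median start height of 1.197 to 2.08. With 1 mouse left out the share of sites in both mice has no value. The 9 genes with a start site peak became 8.5 with the 500 bp window and 8.5 with the higher 50% of peaks. Of 43 recomputed highest start heights of single genes 42 stayed within the SD of the mice. Dlg4 became 5.58 with a window of 2500 bp. The longer peak list and the higher 50% add or drop mainly low peaks, and there each height equalled the main value. Heights divided by the library median are in another unit, so their place within the SD is no check. The same holds for the median start height among the 33 values. The count of genes with a start site peak was already all 9, so it could not rise with the longer list or the 2500 bp window. Those 9 are no check either. Shank1 with the 500 bp window and Dlg1 with the higher 50% had no value in replicate 2 and are not counted. Leaving out a mouse moved 4 of these heights by over 1.5 times: without replicate 1, Shank3 became 2.35, Dlg1 0.929 and Dlgap1 1.08, and without replicate 2, Dlg1 became 3.26. After the data were seen, peaks near other genes' starts were left out, which gave 168 peaks, and the X-box pattern was added, which gave 124 matches. No paired analysis was possible because there is 1 group. Limits are 1 library per mouse, heights whose scale is inferred, lists that hold no value under their threshold, and GC content that moved with the ratio of the mice.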

Other observations

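Footprints also lay outside peaks in the 9 gene spans. Of 792 footprints in replicate 1, 258 overlapped no peak and 18 overlapped one in part, and of 575 in replicate 2, 190 and 21. Summed over peaks, 539 and 365 lay inside one. Over the genome these sums were 188238 of 288172 in replicate 1 and 149844 of 224558 in replicate 2, so the shares were near the background. Dlg2 had the most footprints in its span, 171 and 175, and Dlg3 25 and 12.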
